A study of Mus musculus with 3 samples.

Results

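Neutrophils were examined among live CD45+ cells of the mouse pancreas, where they made up 234 of 15392 kept barcodes (1.52%) in 3 single-cell libraries. They were chosen on measured values: a barcode with 300 or more UMIs (counted RNA molecules) and at most 30% of them mitochondrial was called a neutrophil when S100a8 and S100a9 together held 2% or more of its UMIs, when at least 1 of the 4 genes Csf3r, Cxcr2, Retnlg and Mmp9 was seen, and when Csf1r, Cd79a, Cd3e and Cd3d had no UMI. The levels of those genes are therefore descriptions and no findings. There were 62 neutrophils of 5590 kept barcodes in the PBS library, 78 of 5251 in the 3-day WGP library and 94 of 4551 in the 7-day WGP library.

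WGP is a whole glucan particle, a preparation of yeast β-glucan, and it was given into the peritoneal cavity. Each group was 1 library from C57BL/6 mice: PBS as the control, WGP 3 days prior to pancreas collection (3-day WGP), and WGP 7 days prior (7-day WGP). Per the study's methods, animals of both sexes at 6 to 8 weeks were used. The sources used here do not give the number or the sex of the mice behind each library, so that no value has a replicate check. The intervals below cover counting error only and no difference between mice. Those of CPM and of CPM ratios take each UMI as independent and leave out the spread between cells.

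Neutrophils are short-lived granulocytes made in the bone marrow. While they mature there they fill granules in a fixed order, first the azurophil granules with Elane and Mpo, then the specific granules with Camp, Ngp and Ltf, and finally the gelatinase granules with Mmp9, and most granule transcripts are gone by the time the cell circulates. Mature cells follow CXCR2 ligands into tissue, sense fungal glucans through C-type lectin receptors, and answer with oxidants, IL-1β and chemokines. Their RNA content is low in comparison to other leukocytes.

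The label was checked against markers. Neutrophil genes that the rule did not use were far above their level in all other kept barcodes of the same library, as seen with Hdc, the histamine-forming enzyme, at 784, 1623 and 2401 CPM (the UMIs of a gene for each 1000000 UMIs of the cells summed) in PBS, 3-day and 7-day neutrophils and at 9.48, 30.1 and 24.1 CPM in the other barcodes. Lrg1, which was picked for its high ratio to the other barcodes in these data and is a description only, stood at 614, 970 and 638 CPM against 4.67, 19.2 and 7.94 CPM. Stfa2l1, a stefin gene of mouse neutrophils, gave 194, 742 and 743 CPM against 0.50, 8.6 and 2.74 CPM. The monocyte chemokine receptor gene Ccr2 was at 4.67, 5.36 and 3.26 CPM in neutrophils, and at 1147, 1386 and 1073 CPM in barcodes with Csf1r, Ly6c2 and Ccr2, which stand for Ly6C-high monocytes and were themselves picked on Ccr2. Of the 6 dendritic cell markers 5, 6 and 6 had no UMI in the neutrophils of the PBS, 3-day and 7-day libraries, and of the 7 mast cell or basophil markers 6, 7 and 7 had none. The 7 eosinophil markers summed to 7, 29.5 and 16.3 CPM in neutrophils and to 47.3, 37.9 and 11.1 CPM in the other kept barcodes. They were seen in 3, 8 and 5 neutrophils and were not lower there in the 7-day library. The NK cell list summed to 159, 104 and 29.3 CPM in neutrophils and to 304, 685 and 1150 CPM in the other barcodes. The list of 15 monocyte or macrophage markers summed to 943, 937 and 769 CPM in neutrophils and to 8495, 6215 and 7760 CPM in the other kept barcodes. Ly6c2 of that list did not follow Ccr2, at 765, 418 and 371 CPM in neutrophils and 281, 414 and 661 CPM in the other barcodes. It made up most of the PBS sum and was not lower in the neutrophils of the PBS and 3-day libraries. Acinar cell transcripts summed to 105, 209 and 336 CPM, which, if all of them were free RNA, corresponds to free RNA shares of 0.824%, 3.06% and 2.58% of the UMIs. The B cell list, more abundant in free RNA, summed to 336, 260 and 147 CPM and gave lower shares of 0.717%, 0.327% and 0.552%, with no higher share in the WGP libraries. The rule left out barcodes with a UMI of Cd79a, a gene of this list, so that these shares can be too low.

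Neutrophils were shallow barcodes, with a median of 2740, 3419 and 2238 UMIs in the PBS, 3-day and 7-day libraries in comparison to 5283, 5191 and 7241 UMIs over all kept barcodes. Their UMIs summed to 428540, 373385 and 306986, so that a gene with no UMI could be at up to 7 CPM, 8.03 CPM and 9.77 CPM (a floor of 3 UMIs over the library). No neutrophil barcode was a kept barcode of a second library, while 18 kept barcodes in all were shared between libraries. No doublet caller was run. At the edge of the rule, 3, 7 and 7 neutrophils held 2 to 2.5% of S100a8 and S100a9, and 0, 5 and 7 barcodes that met every other condition held 1.5 to 2%. Csf1r alone kept out 15, 61 and 28 barcodes. These Csf1r barcodes carried neutrophil genes that the rule did not use, such as G0s2 at 2935, 1105 and 1449 CPM and Il1r2 at 388, 345 and 565 CPM. Retnlg, which the rule used, was at 10872, 3007 and 1175 CPM in them. Those of the 3-day library also carried the macrophage gene C1qa at 413 CPM.

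Xist, the RNA of the inactive X chromosome in females, and chromosome Y genes give a view of which animals the cells came from. Among neutrophils 17, 5 and 6 had Xist and no Y transcript in the PBS, 3-day and 7-day libraries, 4, 28 and 18 had a Y transcript and no Xist, and the others had neither. Of the neutrophils that could be typed, 81% in PBS, 15.2% at 3 days and 25% at 7 days were Xist cells, and of all other typed barcodes 53.4%, 16.1% and 39.5%. The mix of animals and the treatment therefore cannot be told apart in any comparison of these libraries.

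Promoter sequence is shown for genes on which the results turn, as examples of 3 lists described below, the specific granule genes, the NF-kB targets and chemokines, and the interferon response genes. The sequences are the 250 bases before the RefSeq gene start (GRCm38.p6), 5′ to 3′ on the strand of the gene. In the first pair, the specific granule genes Ngp (neutrophilic granule protein) and Ltf (lactoferrin), capitals mark TTGCNNAA on either strand, a short form of the site bound by C/EBP factors, which direct granulocyte maturation.
Ngp (chr9:110419558-110419807, plus strand): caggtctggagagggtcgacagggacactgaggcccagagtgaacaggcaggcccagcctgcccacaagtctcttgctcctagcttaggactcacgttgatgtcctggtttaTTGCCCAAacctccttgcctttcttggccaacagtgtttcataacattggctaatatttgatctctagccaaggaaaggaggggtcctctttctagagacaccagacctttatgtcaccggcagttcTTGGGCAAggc
Ltf (chr9:111019042-111019291, plus strand): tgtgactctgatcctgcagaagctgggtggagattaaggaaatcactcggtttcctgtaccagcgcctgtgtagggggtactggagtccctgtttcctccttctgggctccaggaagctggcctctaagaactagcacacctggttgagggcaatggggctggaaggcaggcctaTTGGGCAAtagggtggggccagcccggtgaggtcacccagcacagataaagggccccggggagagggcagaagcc

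In Cxcl2, a neutrophil-attracting chemokine, and Nfkbia, the inhibitor that NF-kB itself induces, capitals mark GGANNTTCC on either strand, a short form of the NF-kB site.
Cxcl2 (chr5:90903649-90903898, plus strand): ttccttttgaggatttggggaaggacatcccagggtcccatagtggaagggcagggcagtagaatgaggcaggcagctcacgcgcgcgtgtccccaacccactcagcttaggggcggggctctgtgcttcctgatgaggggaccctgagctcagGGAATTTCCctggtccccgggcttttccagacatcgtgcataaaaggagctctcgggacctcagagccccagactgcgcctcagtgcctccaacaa
Nfkbia (chr12:55492648-55492897, minus strand): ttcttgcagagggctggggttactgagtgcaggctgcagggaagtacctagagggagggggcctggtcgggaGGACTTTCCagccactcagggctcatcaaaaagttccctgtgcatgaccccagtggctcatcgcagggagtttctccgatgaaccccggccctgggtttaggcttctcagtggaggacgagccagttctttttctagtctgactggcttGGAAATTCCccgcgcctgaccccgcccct

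In Cxcl10, a chemokine for T cells, and in Gbp2 and Gbp5, guanylate-binding proteins of the interferon response, capitals mark GAAANNGAA on either strand, the core of the interferon-stimulated response element.
Cxcl10 (chr5:92348890-92349139, minus strand): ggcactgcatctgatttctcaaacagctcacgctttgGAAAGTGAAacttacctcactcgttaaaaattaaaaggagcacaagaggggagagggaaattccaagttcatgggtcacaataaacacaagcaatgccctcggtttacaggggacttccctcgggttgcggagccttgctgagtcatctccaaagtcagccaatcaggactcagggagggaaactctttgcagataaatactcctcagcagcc
Gbp2 (chr3:142620413-142620662, plus strand): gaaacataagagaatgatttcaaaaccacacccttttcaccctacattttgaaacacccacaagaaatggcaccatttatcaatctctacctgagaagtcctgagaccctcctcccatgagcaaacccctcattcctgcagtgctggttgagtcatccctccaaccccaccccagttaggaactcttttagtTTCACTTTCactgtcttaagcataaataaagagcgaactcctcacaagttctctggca
Gbp5 (chr3:142496684-142496933, plus strand): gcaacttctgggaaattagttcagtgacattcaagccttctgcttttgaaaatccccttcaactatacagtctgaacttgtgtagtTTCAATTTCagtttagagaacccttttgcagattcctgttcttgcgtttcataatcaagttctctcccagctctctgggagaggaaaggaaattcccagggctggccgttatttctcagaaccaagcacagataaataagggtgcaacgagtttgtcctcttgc

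The window searched was 300 bases (250 before and 50 after the start). Over 32851 RefSeq promoters, 10.8% held the C/EBP letters, 4.26% the NF-kB letters and 8.56% the interferon letters. Of the 10 specific granule genes that RefSeq promoters were matched to, 4 held the C/EBP letters, and of the cytokines and chemokines 7 of 16 held the NF-kB letters, as did 6 of 15 NF-kB targets. The interferon letters were found in 18 of 28 interferon response genes. The letters were not limited to these lists, with the C/EBP letters in 5 of 12 genes known from neutrophils in tumors and tissue and the NF-kB letters in 8 of 28 interferon response genes and 4 of 16 immediate early and heat shock genes. These matches describe the sequence, and no binding was measured.

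The neutrophils were divided into 2 forms by granule transcripts. In cells of the first form Camp (cathelicidin), Ngp and Ltf together held 1% or more of the UMIs. These were 21 of 62 PBS neutrophils, 7 of 78 3-day neutrophils and 6 of 94 7-day neutrophils. Their median depth was 14620, 10591 and 16322 UMIs and their median S100a8 and S100a9 share 35.2%, 42% and 31.4%. Not all of them were deep, as the shallowest held 341, 1933 and 8557 UMIs. Cells of the second form had no UMI of Camp, Ngp or Ltf, which was so in 33, 62 and 83 neutrophils, called granule-negative below. Their median depth was 2228, 3196 and 2175 UMIs and their S100a8 and S100a9 median 11.2%, 6.05% and 8.15%. The remaining 8, 9 and 5 cells held a trace of the 3 transcripts. The forms are cuts set here, and some cells lay between them. A PBS cell of 2646 UMIs, for example, held 0.68% of granule transcripts and 34.8% of S100a8 and S100a9. Camp, Ngp and Ltf summed to 84037, 73059 and 81044 CPM in the cells with any of the 3 transcripts, a level that this choice of cells in part sets. A cell with more UMIs has more chance to show a granule transcript, and the part of depth in this split was not tested.

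**Figure D1:**
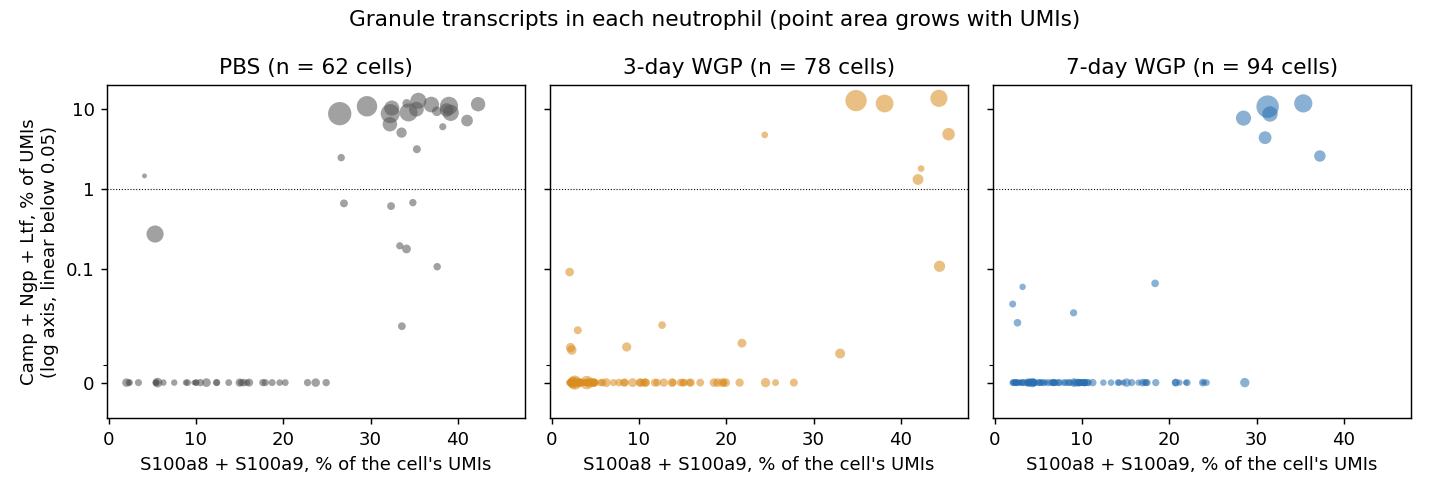
Share of Camp, Ngp and Ltf (vertical, % of UMIs, log axis that is linear below 0.05) against the share of S100a8 and S100a9 (horizontal, % of UMIs) in each of the 62 PBS, 78 3-day WGP and 94 7-day WGP neutrophils, with the point area growing with the UMIs of the cell and a dotted line at 1%. Most cells above the line lie to the right of 25% S100a8 and S100a9, and 33, 62 and 83 cells lie at 0.

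When all neutrophils were thinned to 300 UMIs each, the genes that best separated the 56 cells with a Camp, Ngp or Ltf UMI from the 178 without were Il1b, seen in 25% of the former and 94.4% of the latter, Lcn2 (lipocalin 2, a specific granule protein), seen in 71.4% and 14.6%, and the early response gene Junb, seen in 19.6% and 74.2%. Cxcl2 was seen in 30.4% and 66.3%. These genes were ranked on the same cells, pooled over the 3 libraries, and are given as a description. Cells with a Camp, Ngp or Ltf UMI numbered 29, 16 and 11 in the PBS, 3-day and 7-day libraries, and cells without numbered 33, 62 and 83. This contrast of forms is thus mixed with that of the libraries, and their parts were not tested. By the ratio of variance to mean, averaged over the 3 libraries, the most variable genes were S100a9, Ngp, S100a8, Camp and Fth1 (ferritin heavy chain), of which Fth1 had a ratio of 2.87 in PBS, below that of Retnlg, Malat1, Cxcl2, Elane and Lcn2 there, and of 11.5 and 10.8 in the 3-day and 7-day libraries.

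The share of neutrophils among kept barcodes was 1.11% in PBS (exact 95% binomial interval 0.851 to 1.42%), 1.49% at 3 days (1.18 to 1.85%) and 2.07% at 7 days (1.67 to 2.52%). The ratio to PBS was 1.34 at 3 days (0.947 to 1.9) and 1.86 at 7 days (1.34 to 2.61). Under this rule the counting interval included no change at 3 days and did not at 7 days. Other settings, given below, changed this. The forms went in opposite directions. Granule-negative neutrophils were 0.59%, 1.18% and 1.82% of kept barcodes, a ratio to PBS of 2 (1.29 to 3.15) at 3 days and 3.09 (2.04 to 4.78) at 7 days. Neutrophils with 1% or more of granule transcripts were 0.376%, 0.133% and 0.132%, a ratio of 0.355 (0.127 to 0.866) and 0.351 (0.116 to 0.899). They gave 71.5% of all neutrophil UMIs in PBS, 26.6% at 3 days and 36.9% at 7 days.

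**Figure D2:**
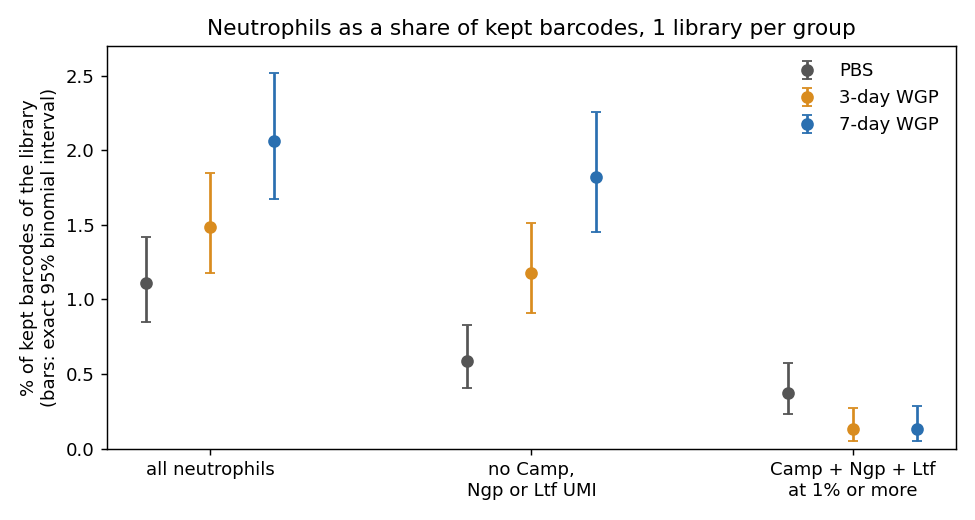
Neutrophils as a percentage of kept barcodes (vertical) for all neutrophils, those without Camp, Ngp or Ltf and those with the 3 genes at 1% or more of UMIs, with 1 point per library and exact 95% binomial intervals as bars. Granule-negative cells are at 0.59%, 1.18% and 1.82% in PBS, 3-day WGP and 7-day WGP, and granule-rich cells at 0.376%, 0.133% and 0.132%.

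These shares are of barcodes and not of cells per pancreas, and they depended on the rule and on the animals. With Csf1r barcodes kept there were 77, 139 and 122 neutrophils and the log2 ratio to PBS was 0.94 at 3 days. With S100a8 and S100a9 at 5% or more it was -0.22 at 3 days and 0.51 (-0.025 to 1.05) at 7 days, from 57, 46 and 66 cells. The 7-day interval then included no change. With a minimum of 1000 UMIs the log2 ratio at 3 days was 0.51 (0.0018 to 1.02), an interval that did not include it. Within Xist barcodes the log2 ratio was 0.32 (-1.47 to 1.82) at 3 days and -0.77 (-2.40 to 0.64) at 7 days, from 17, 5 and 6 neutrophils. Within Y barcodes it was 2.31 (0.79 to 4.28) and 2.07 (0.47 to 4.10), from 4, 28 and 18. Among the 5 Xist neutrophils of the 3-day library 4 had a granule transcript, as had 11 of 17 in PBS and 1 of 6 at 7 days, and over these few cells 18 genes were higher and 105 lower at 3 days than in PBS. The granule-negative cells of the 3-day library were nearly all Y cells, with 27 Y and 1 Xist among those typed, in comparison to 1 Y and 6 Xist in PBS and 12 Y and 5 Xist at 7 days.

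For expression, the UMIs of the neutrophils of each library were summed and written as CPM. Among the 1196 genes at a mean of 100 CPM or more, 245 were higher at 3 days than in PBS by 2-fold or more on the log2 scale of CPM plus 20 (20.5% of those tested) and 65 were lower (5.43%). At 7 days 245 were higher (20.5%) and 43 lower (3.6%) than in PBS. Between 7 and 3 days 41 were higher at 7 days (3.43%) and 29 lower (2.42%). With S100a8, S100a9 and mitochondrial UMIs taken out of the total, 230 were higher and 131 lower at 3 days and 234 and 99 at 7 days, so that higher genes were 63.7% and 70.3% of those past 2-fold in comparison to 79% and 85.1%. The median log2 ratio of all tested genes was 0.24 at both times, which is the shift against which the lists are read. Since the granule-rich cells held most of the PBS UMIs, the same was done on granule-negative neutrophils, with 79025, 228981 and 181165 UMIs. There 159 of 1395 tested genes were higher at 3 days (11.4%) and 86 lower (6.16%), 110 higher (7.89%) and 48 lower (3.44%) at 7 days, and 66 higher (4.73%) and 68 lower (4.87%) at 7 days than at 3 days. The median of all genes was 0.00, -0.02 and -0.03. The shares and medians of this paragraph are those beside which the list counts below are read. A gene can reach the mean of 100 CPM through the 1 library where it is high, and such genes can be in all of these counts. Both WGP libraries were compared with the same PBS library, and with 1 library each there is no test of any difference.

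Specific granule genes were lower in the summed WGP neutrophils, with 7 of 10 tested genes lower by 2-fold at 3 days and 5 of 10 at 7 days (medians -1.12 and -0.96) and 1 higher at each time. Camp, on chromosome 9 (109847379 to 109849617, minus strand), was at 33684 CPM in PBS, 12561 CPM at 3 days and 14170 CPM at 7 days, a ratio to PBS of 0.373 (0.361 to 0.385) and 0.421 (0.407 to 0.435). Ltf, which binds iron, was at 7064, 2780 and 2932 CPM, and Ly6g, the surface antigen commonly used to mark mouse neutrophils, at 560, 198 and 147 CPM. The gene that was higher was Olfm4 (olfactomedin 4) at 2.33, 104 and 231 CPM, seen in 1, 4 and 2 cells. Within the cells that had Camp, Ngp or Ltf at all, Camp was at 41300, 32478 and 34573 CPM and Ngp at 34076, 33392 and 39318 CPM. These cells were picked on those 3 genes, so that the levels of the 3 genes in them are in part set by the split. None of the 11 specific granule genes tested in these cells was lower by 2-fold at either time. The cells with 1% or more of granule transcripts numbered 21, 7 and 6.

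Azurophil granule genes came from very few cells. Elane (neutrophil elastase) was at 1617, 913 and 6.52 CPM in 4, 1 and 1 cells, and Mpo (myeloperoxidase) at 784, 319 and 6.52 CPM in 4, 1 and 1 cells. The 4 genes Elane, Mpo, Prtn3 and Ctsg held 1% or more of UMIs in 2 PBS cells of 21000 and 40078 UMIs, in 1 3-day cell of 13961 UMIs and in no 7-day cell. The 3-day cell had no Camp, Ngp or Ltf and gave 341 of 341 Elane UMIs and 119 of 119 Mpo UMIs of the granule-negative neutrophils, so that the ratios of these genes at 3 days are values of 1 cell. All 5 tested genes of the azurophil list were lower at 7 days than in PBS in the summed neutrophils. Dividing cells were as rare. Mki67, present in cycling cells, was seen in 8, 3 and 4 neutrophils, of which 8, 2 and 4 had a granule transcript, and was at 203, 37.5 and 221 CPM. Of 10 tested cell cycle genes 9 were lower by 2-fold at 3 days and none at 7 days, where the 3-day library held 1 cell with Top2a in comparison to 7 in PBS and 3 at 7 days.

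Cytokine and chemokine genes were higher after WGP over all neutrophils, but not in the Xist cells of the 3-day library. In summed neutrophils 8 of 10 tested genes were higher by 2-fold at both times (medians 2.86 and 2.81), and in granule-negative neutrophils 6 of 10 at 3 days and 5 of 10 at 7 days (1.80 and 1.18). Over the 17, 5 and 6 Xist cells the list median was -0.47 at 3 days and 2.81 at 7 days, and there Tnf, Ccl3, Ccl4, Cxcl2, Cxcl10 and Il1b were lower than in PBS at 3 days and Ccl4 and Il1rn at 7 days. In granule-negative cells Tnf was at 38, 961 and 519 CPM, seen in 3 of 33, 32 of 62 and 20 of 83 cells, a ratio to PBS of 25.3 (8.55 to 124) at 3 days and 13.7 (4.54 to 67.5) at 7 days. The intervals of both WGP libraries lay above that of PBS, where 3 UMIs in 3 cells set the width of the ratio intervals. Il1rn, the IL-1 receptor antagonist, was at 75.9, 1083 and 756 CPM, a ratio of 14.3 (6.46 to 39.2) and 9.96 (4.46 to 27.6). Ccl4, an inflammatory chemokine, was at 228, 2651 and 1115 CPM, 11.6 times (7.3 to 19.8) and 4.9 times (3.02 to 8.43) the PBS level, and was lower at 7 than at 3 days. Ccl3, its neighbor in function, was at 506, 2192 and 905 CPM. Csf1, the macrophage growth factor, was at 240, 734 and 740 CPM. Osm (oncostatin M) went the other way at 3 days only, at 1114, 349 and 1054 CPM.

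The most abundant of these transcripts depended on which neutrophils were summed. Il1b, on chromosome 2 (129364570 to 129371139, minus strand), was at 3276, 8530 and 10473 CPM over all neutrophils, a ratio to PBS of 2.6 (2.44 to 2.77) and 3.2 (3 to 3.41). In granule-negative neutrophils it was at 16197, 12359 and 16466 CPM, a ratio of 0.763 (0.714 to 0.816) at 3 days and 1.02 (0.952 to 1.09) at 7 days. It was thus already high in the PBS cells of this form and was seen in 33 of 33, 60 of 62 and 82 of 83 of them. In cells with Camp, Ngp or Ltf it was at 355, 2458 and 1844 CPM, seen in 8 of 29, 9 of 16 and 7 of 11 cells. Cell by cell, the median Il1b level was 5982, 12127 and 15129 CPM over all neutrophils. At 300 UMIs a cell, 56.5%, 82.1% and 88.3% of neutrophils had an Il1b UMI, with 0.4%, 0.4% and 3.4% of B cells (barcodes with Cd79a) as the background. Before this thinning neutrophils had the medians of 2740, 3419 and 2238 UMIs given above and B cells 4176, 6005 and 5647 UMIs. Unthinned, 66.1%, 88.5% and 94.7% of neutrophils had one.

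Cxcl2, whose promoter is given above, was higher in both forms. Over all neutrophils it was at 1638, 9824 and 7434 CPM, 6 times (5.53 to 6.51) and 4.54 times (4.17 to 4.95) the PBS level. In granule-negative neutrophils it was at 6441, 12490 and 9411 CPM, 1.94 times (1.76 to 2.14) and 1.46 times (1.32 to 1.62). These ratios lie under the 2-fold line but the counting intervals of the 3 libraries did not overlap. In cells with Camp, Ngp or Ltf it was at 552, 5595 and 4586 CPM. The level also varied widely from cell to cell, with medians of 435, 7996 and 5717 CPM and highest cells of 55474, 64553 and 48051 CPM. In free RNA it was at 116, 696 and 370 CPM.

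Targets and feedback genes of NF-kB, the factor that drives most inflammatory genes, were higher as a list. All 9 tested genes were higher by 2-fold at both times over all neutrophils (medians 2.10 and 2.68), and 7 and 8 of 13 in granule-negative cells (1.22 and 1.39). Over the Xist cells the median was -0.14 at 3 days and 2.28 at 7 days. Nfkbia was at 1076, 4703 and 3709 CPM in granule-negative cells, 4.37 times (3.5 to 5.52) and 3.45 times (2.75 to 4.37) the PBS level. Icam1, an adhesion molecule, had no UMI in the 33 granule-negative PBS cells and was at 454 CPM in 27 3-day cells and 673 CPM in 23 7-day cells, at least 11.96-fold and at least 17.7-fold higher against the PBS floor of 38 CPM (3 UMIs). Sod2, a mitochondrial enzyme against superoxide, was at 38, 328 and 513 CPM in granule-negative cells. Tnfaip3, the A20 inhibitor of NF-kB signaling, was at 88.6, 389 and 326 CPM there. Tnfaip2 was at 1835, 2197 and 4626 CPM, higher by 2-fold only in the 7-day library.

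**Figure D3:**
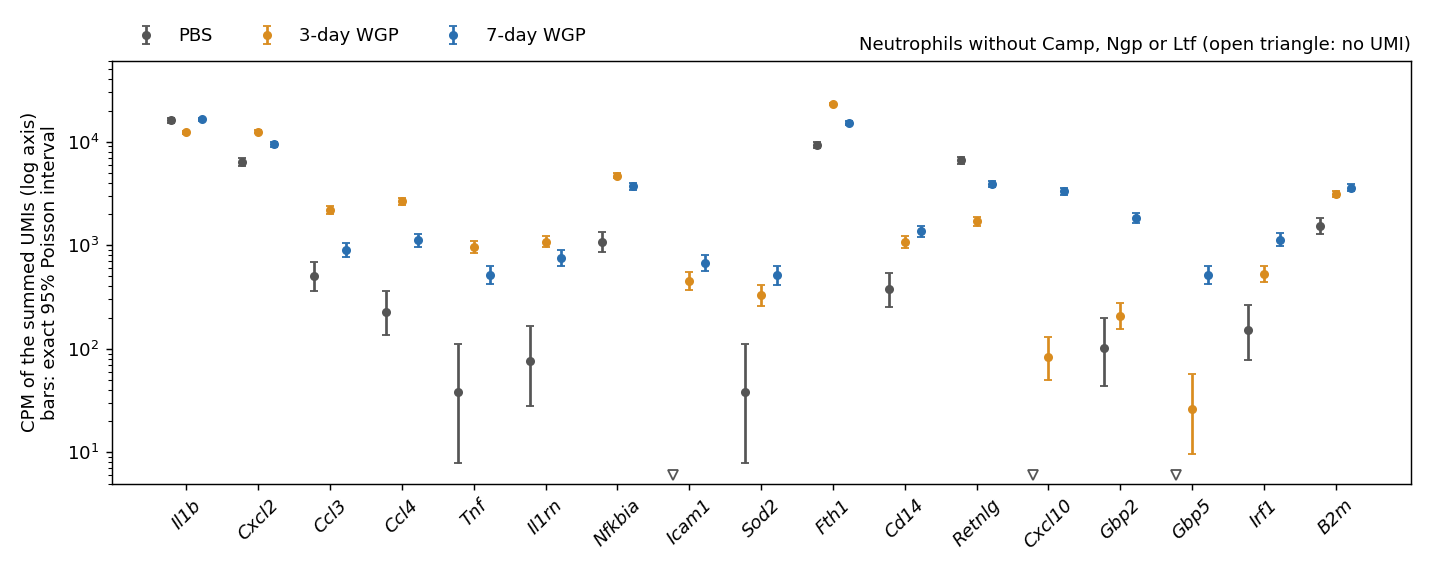
CPM (vertical, log axis) of 17 genes in granule-negative neutrophils of the PBS, 3-day WGP and 7-day WGP libraries, with exact 95% Poisson intervals as bars and open triangles where no UMI was seen. Nfkbia is at 1076, 4703 and 3709 CPM, Il1b at 16197, 12359 and 16466 CPM, and Cxcl10 at 0, 83 and 3334 CPM.

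Interferon response genes separated the 2 times. In granule-negative neutrophils 5 of 26 tested genes were higher than in PBS by 2-fold at 3 days and 3 were lower, and at 7 days 16 were higher and none lower (medians 0.18 and 1.15). Between 7 and 3 days 17 of 26 were higher and none lower (median 1.21). Cxcl10 had no UMI in PBS, and was at 83 CPM in 6 of 62 cells at 3 days and at 3334 CPM in 23 of 83 cells at 7 days, at least 87.8-fold higher than the PBS floor at 7 days and 40.2 times (25.5 to 67.2) the 3-day level. It was high in part of the cells, and its free RNA level at 7 days was 433 CPM. Gbp2 was at 101, 210 and 1849 CPM, 8.82 times (6.5 to 12.2) higher at 7 than at 3 days, and seen in 6, 19 and 44 cells. Gbp5 was at 0, 26.2 and 519 CPM and Ifi47, an interferon-inducible GTPase, at 38, 43.7 and 651 CPM.

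Some interferon genes were instead lowest at 3 days. Isg15, a ubiquitin-like modifier, was at 1278, 314 and 1557 CPM, a ratio to PBS of 0.246 (0.179 to 0.336) at 3 days and 1.22 (0.967 to 1.54) at 7 days. Slfn5 was at 329, 122 and 718 CPM and Isg20, an exonuclease, at 152, 56.8 and 381 CPM. Irf1, a transcription factor of the response, was higher at each time, at 152, 533 and 1137 CPM. B2m, the light chain of MHC class I, was at 1544, 3127 and 3604 CPM and was seen in 28 of 33, 62 of 62 and 81 of 83 cells. No gene of the MHC class II and co-stimulation list reached the level for a ratio. Over all neutrophils the interferon list had 11 of 21 genes higher at 3 days, and 19 of 21 higher and 1 lower at 7 days (medians 1.19 and 2.11).

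**Figure D4:**
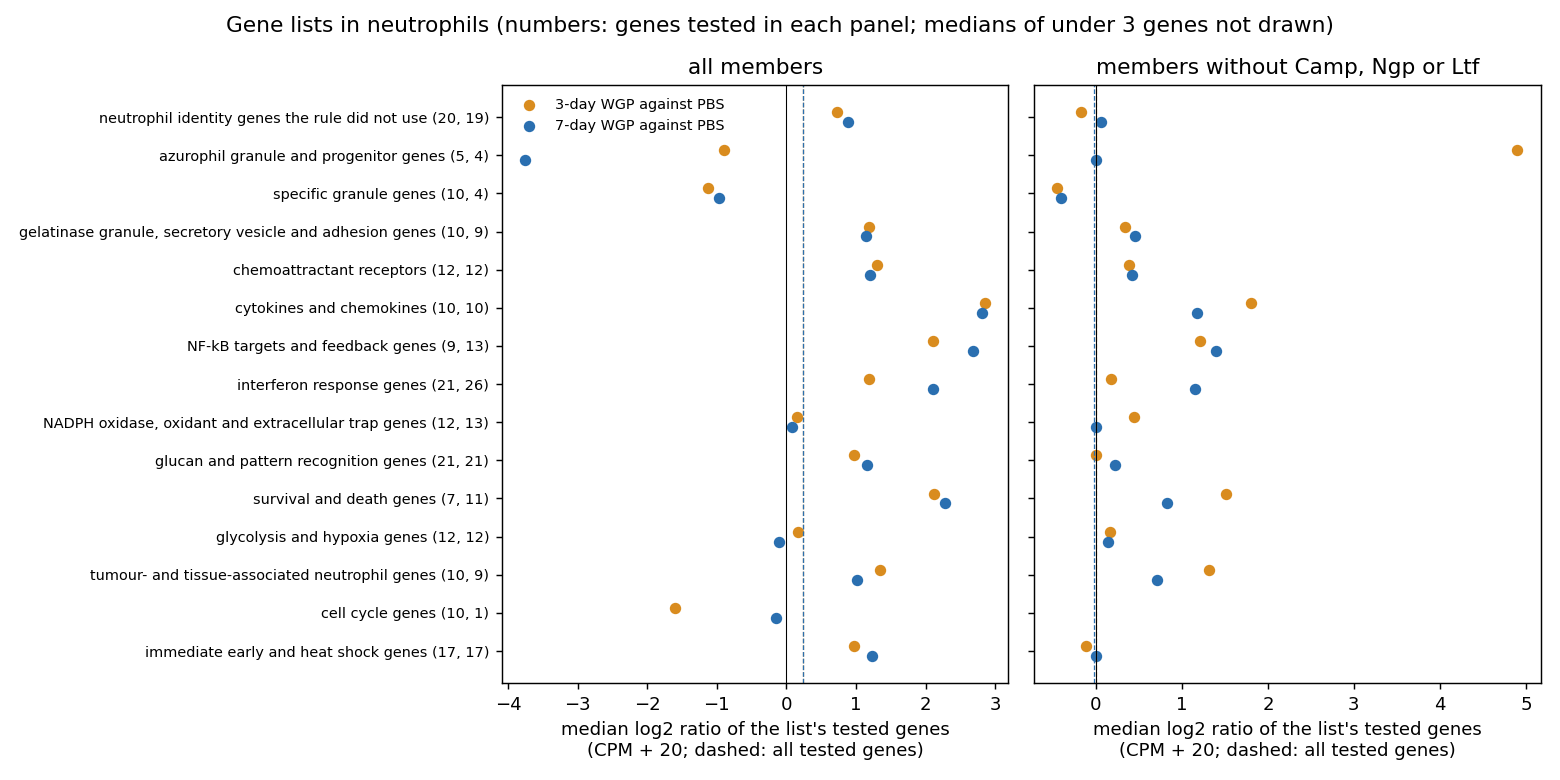
Median log2 ratio to PBS (horizontal, CPM plus 20) of 15 gene lists (vertical, with the genes tested in each panel) at 3 and 7 days, over all neutrophils (left) and granule-negative neutrophils (right), with dashed lines at the median of all tested genes. The interferon list is at 0.18 and 1.15 on the right, the NF-kB list at 1.22 and 1.39, and the azurophil value of 4.90 at 3 days comes from 1 cell for Elane, Mpo and Ctsg.

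Receptors for glucans and other microbial patterns had list medians close to 0 in granule-negative cells. There 4 of 21 tested genes (19%) were higher by 2-fold at each time, in comparison to 11.4% of all tested genes at 3 days and 7.89% at 7 days (medians 0.00 and 0.22), in comparison to 9 and 11 of 21 over all neutrophils (0.97 and 1.16). Clec4n, which encodes Dectin-2, was at 202, 472 and 718 CPM in granule-negative cells, 2.33 times (1.37 to 4.22) and 3.54 times (2.1 to 6.38) the PBS level. Clec4e, which encodes Mincle, was at 1202, 2555 and 2081 CPM. Cd14, the lipopolysaccharide co-receptor, was at 380, 1074 and 1363 CPM. Fcgr4, an activating Fc receptor, was higher only at 7 days, at 177, 166 and 403 CPM. Acod1, which makes itaconate, was at 494, 1563 and 2743 CPM.

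Chemoattractant receptors showed 3 (25%) and 2 (16.7%) of 12 genes higher by 2-fold at 3 and 7 days in granule-negative cells. Of all tested genes 11.4% and 7.89% were higher there. Ccrl2, an atypical receptor, was at 240, 1432 and 1253 CPM, 5.96 times (3.75 to 10) and 5.21 times (3.26 to 8.82) the PBS level. Ptafr, the receptor of platelet-activating factor, was at 253, 804 and 828 CPM. Cxcr4, which draws neutrophils to the bone marrow and rises as they age, was at 671, 821 and 927 CPM, and did not differ by 2-fold. Over all neutrophils it did, at 168, 627 and 612 CPM.

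Genes of survival and death were higher in part in granule-negative cells, 7 of 11 (63.6%) at 3 days and 5 of 11 (45.5%) at 7 days (medians 1.52 and 0.82). Of all tested genes 11.4% and 7.89% were higher there. Bcl2a1b, a member of the BCL2 family that delays neutrophil death, was at 63.3, 336 and 491 CPM, but it has near-identical copies and the split of reads among them is uncertain. Gadd45b, a stress response gene, was at 266, 1092 and 1027 CPM. Of the genes known from neutrophils in tumors and tissue, 5 of 9 (55.6%) and 4 of 9 (44.4%) were higher, and 1 (11.1%) was lower at each time. Cd274, which encodes PD-L1, was at 75.9, 231 and 475 CPM, 3.05 times (1.31 to 8.68) and 6.25 times (2.76 to 17.5) the PBS level. Ctsb (cathepsin B) was at 25.3, 1022 and 270.5 CPM, with its highest value at 3 days. Spp1 at 7 days, 309 CPM, came from 2 cells. Igfbp7, an endothelial gene and the lowest gene of both comparisons with PBS, was at 785 CPM in 1 PBS cell.

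Fth1 and Ftl1, the ferritin chains, and Hmox1, which frees iron from heme, were highest at 3 days in granule-negative cells. Fth1 was at 9301, 23146 and 15196 CPM, 2.49 times (2.3 to 2.69) and 1.63 times (1.51 to 1.77) the PBS level. Its median over all neutrophils was 4461, 9137 and 9512 CPM and its highest cells 24504, 110918 and 146699 CPM. In free RNA Fth1 was at 3056, 9169 and 12357 CPM, of the order of that median, and with free RNA taken off at the acinar-based share the log2 ratio over all neutrophils was 2.59 in comparison to 2.58 at 3 days and 1.78 in both cases at 7 days. Hmox1 was at 101, 419 and 88.3 CPM and Cstb (cystatin B) at 139, 1070 and 293 CPM.

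Some genes that the rule did not use were lower at 3 days than in both other libraries in granule-negative cells. G0s2, a lipase inhibitor, was at 3391, 1463 and 3213 CPM, a ratio of 0.431 (0.366 to 0.508) and 0.947 (0.818 to 1.1). Slfn4 was at 759, 293 and 684 CPM. Adam8 was at 582, 148 and 287 CPM. Of the 19 tested identity genes that the rule did not use, 2 (10.5%) were higher and 3 (15.8%) lower by 2-fold at 3 days, and 1 (5.26%) was higher at 7 days. Of all tested genes 11.4% were higher and 6.16% lower at 3 days and 7.89% higher at 7 days. The shares of higher genes were thus not above those of all tested genes, and the share of lower genes rests on 3 genes.

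The oxidase, glycolysis and early response lists are given for granule-negative cells beside all tested genes, of which 11.4% were higher and 6.16% lower at 3 days and 7.89% and 3.44% at 7 days. Of 13 oxidase, oxidant and extracellular trap genes 4 (30.8%) were higher and 1 lower at 3 days and 2 (15.4%) higher at 7 days. Of 12 glycolysis and hypoxia genes 2 (16.7%) were higher at 3 days and none at 7 days. Of 17 immediate early and heat shock genes 3 (17.6%) were higher and 2 lower at 3 days, and 2 (11.8%) higher at 7 days, among them Ier3 at 152, 1188 and 1783 CPM. Over all neutrophils 8 and 11 of these 17 were higher.

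Granule-negative neutrophils were also divided by their S100a8 and S100a9 share, a value that the rule used, as a description. For this split S100a8 and S100a9 were left out of the UMI total, so that the values are above the CPM given elsewhere. Cells at 2 to 10% numbered 14, 37 and 54, and cells at 10% or more 19, 25 and 29. Ccl3 did not keep 1 order between these ranges, at 789 against 436 CPM in PBS, 2228 against 2728 CPM at 3 days and 1323 against 381 CPM at 7 days. Within each range Nfkbia was higher after WGP, at 1041, 4367 and 4599 CPM in cells at 2 to 10% and at 1355, 6598 and 3178 CPM in cells at 10% or more.

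Ly6C-high monocytes, numbering 137, 217 and 924 barcodes, are the other myeloid cells compared here. Il1b was at 154, 1285 and 1817 CPM in them and Cxcl2 at 54.3, 776 and 585 CPM, below the neutrophil level in each library but also higher in both WGP libraries. Acod1 was at 0, 105 and 288 CPM in monocytes. Whether the change differed between both cell types was not tested, as each has 1 library per group.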

How the data were processed

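Single-cell 3′ libraries (10x Genomics Chromium v3.1) were made from live CD45+ cells of the pancreas, 1 library for each of PBS, 3-day WGP and 7-day WGP. The authors deposited whole UMI counts per gene and barcode for every barcode, not normalized, made per the submitters' processing notes with Cell Ranger 3.1.0 on mm10. The matrices held 52464690, 56849043 and 48219246 UMIs over 31053 genes. Barcodes were kept at 300 UMIs or more and at most 30% mitochondrial UMIs, and neutrophils were then chosen by the gene rule given in the report. UMIs were summed per library and scaled to CPM in Python 3.11.15 with numpy and scipy, with exact 95% Poisson, binomial and conditional ratio intervals. Ratios of lists and counts of genes used CPM plus 20, a mean of 100 CPM and a 2-fold limit. The named genes were those of the gene lists and the 10 highest and 10 lowest of each comparison outside mitochondrial, ribosomal, hemoglobin, immunoglobulin, sex-linked and unnamed genes, with further genes listed by level, by contrast with other barcodes and by variance. Members and lists were chosen with earlier results of these data known. Free RNA was taken from barcodes of at most 100 UMIs. TMM factors came from edgeR 4.0.16 in R. The ratio, interval and call functions were run on simulated Poisson counts. These counts had no spread between cells or mice, so that the run does not check the intervals for such spread. Of 27 listed glucan and pattern recognition genes 26 were matched by symbol. With 1 library per group no test was possible, and no doublet caller was run.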

Additional observations from a re-analysis of the deposited data

Results flagged for a closer look

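Barcodes that showed 2 or more of the 4 genes Csf3r, Cxcr2, Retnlg and Mmp9, and otherwise met the rule, but had S100a8 and S100a9 under 2% of their UMIs, were outside every comparison above. They were 0.143% of kept barcodes in PBS (8), 0.533% at 3 days (28) and 0.593% at 7 days (27), and both WGP values were above the control in barcodes that no comparison used. Their median depth was 2371, 3420 and 2174 UMIs. In the WGP libraries they carried Il1b at 9041 and 11798 CPM and Cxcl2 at 11244 and 9541 CPM. The neutrophils of the same libraries had Il1b at 8530 and 10473 CPM and Cxcl2 at 9824 and 7434 CPM. Csf3r, a gene on which both sets were picked, was at 826 and 1136 CPM against 991 and 1182 CPM. The selection in part sets these Csf3r levels. The 8 PBS barcodes carried the MHC class II gene H2-Ab1 at 6272 CPM, in comparison to 22.9 CPM at 3 days and 664 CPM at 7 days, and Ccr2 at 351 CPM, in comparison to 22.9 and 59 CPM. Lyz2 was at 721, 1362 and 1342 CPM in them. With S100a8 and S100a9 at 1% or more, a setting chosen after seeing the data, the neutrophils numbered 63, 88 and 107 and the log2 ratio of their share to PBS was 0.57 at 3 days and 1.06 at 7 days.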

How the results depend on the processing

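The share of neutrophils gave a log2 ratio to PBS of 0.42 at 3 days and 0.90 at 7 days. It moved at 3 days to -0.22 with S100a8 and S100a9 at 5% or more, 0.94 with Csf1r barcodes kept, 2.31 in Y cells and 1.0 in granule-negative cells, and at 7 days to 1.78 without barcodes over 5000 UMIs, 2.07 in Y cells and 1.63 in granule-negative cells, and it reversed to -0.77 in Xist cells. The numbers of genes past 2-fold below are given as higher and lower at 3 days against PBS, at 7 days against PBS and at 7 days against 3 days, which were 245 and 65, 245 and 43, and 41 and 29. They were 377 and 113, 377 and 77, and 80 and 57 with a mean of 50 CPM or more, 153 and 31, 157 and 28, and 15 and 16 with 200 CPM, and 148 and 26, 158 and 23, and 20 and 18 with a pseudocount of 100 CPM. The first pair of settings tests more or fewer genes. In granule-negative cells they were 159 and 86, 110 and 48, and 66 and 68, and without azurophil-rich cells among them 143 and 90, 110 and 47, and 58 and 56. Without barcodes over 5000 UMIs 159 were higher at 3 days and 48 lower at 7 than at 3 days, and with S100a8 and S100a9 at 5% or more 13 were lower at 7 than at 3 days. With S100a8, S100a9 and mitochondrial UMIs out of the total 131 were lower at 3 days and 99 at 7 days, and with every cell weighted alike 147 were higher at 3 days. In the 17, 5 and 6 Xist cells they were 18 and 105, 284 and 137, and 344 and 79. In these few cells the log2 ratio at 3 days reversed for Camp (0.33), Ngp (0.69), Ltf (0.58), Ly6g (0.48), Il1b (-0.22), Cxcl2 (-0.15), Ccl3 (-0.67), Ccl4 (-1.57), Tnf (-0.47), Cxcl10 (-0.48), Nfkbia (-1.05), Tnfaip3 (-0.67), Sod2 (-0.46), Acod1 (-0.015), Clec4e (-0.30), B2m (-0.23), Cxcr4 (-0.97), Cd274 (-0.48), Fth1 (-0.42) and Spp1 (-0.26), and at 7 days for Ly6g (0.091), Ccl4 (-0.21), Il1rn (-1.13) and Spp1 (-0.26). In granule-negative cells the 3-day log2 ratio reversed for Il1b (-0.39), Mpo (4.75, from 1 cell) and Mki67 (0.28), and without azurophil-rich cells for Il1b (-0.30) and Mki67 (0.30). The cause of these moves was not tested. Genes could not be compared within Y cells, as PBS had 4. Both granule-negative settings kept the direction of 46 of 60 gene ratios and the Xist cells of 32. Of the other 14 in granule-negative cells, Camp, Ngp and Ltf were at 0 by construction at both times and Elane, Mpo and Mki67 at 0 at 7 days, and Lcn2 (0.86) and Elane (6.24, from 1 cell) turned at 3 days beside the 3 genes above. There 23 of 28 list medians kept direction, and those that did not were the identity (-0.17), early response (-0.12) and azurophil (4.90) lists at 3 days and the azurophil (0) and glycolysis (0.14) lists at 7 days. Every other alternative kept all 60 except Csf1r barcodes kept, equal weight per cell and the total without S100a8, S100a9 and mitochondrial UMIs (Mki67 at 7 days, from 0.11 to -0.062, and the oxidase list median, from 0.15 to -0.14 at 3 days and 0.088 to -0.11 at 7 days, and the glycolysis list median at 3 days, from 0.17 to -0.0087), which each kept 59, and barcodes over 5000 UMIs left out, which kept 54. Those counts of 60 are of gene ratios. Of list medians, 21 of 30 kept direction in Xist cells and 23 of 26 without barcodes over 5000 UMIs. S100a8 and S100a9 at 5% or more kept 28 of 30, and at least 2 of the 4 genes and equal weight per cell each kept 26 of 28. A mean of 50 CPM kept 29 of 30, and granule-negative cells without azurophil-rich cells 23 of 26. The granule-negative cells, the equal weights, the 1% threshold and the azurophil limit were chosen after seeing the data. No paired analysis was possible because each group has 1 library. Depth limits the PBS granule-negative cells most, where 1 UMI is 12.7 CPM.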
